A study of Drosophila melanogaster with 2 samples.

Results

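Intronic HmgZ peaks close to, but outside, promoters were described in whole Drosophila melanogaster embryos. A peak was a member if its summit lay inside a gene body, in no exon, and more than 250 bp but at most 1000 bp from the nearest annotated transcription start site (TSS) of any gene. Of the 6844 peaks that passed the authors' irreproducible discovery rate (IDR) threshold, 615 (8.99%) were members. The rule used position and no measured value. Chromatin immunoprecipitation with sequencing (ChIP-seq) used mixed-sex embryos collected at 4 to 24 h. Their transgenic strain stably expresses HmgZ with green fluorescent protein (eGFP) at its C-terminus. Biological replicates 1 and 3 form the single group, and there is no other condition. The tagged protein comes from an insertion targeting HmgZ in 1 line, the embryos span many stages and all tissues, and untagged embryos were not analysed here. A free-text label calls both samples input controls, but the antibody field, the assay name and the peak lists are those of an HmgZ ChIP, so they were treated as one.

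HmgZ is one of the small HMGB-type proteins of Drosophila, each built around an HMG box that inserts into the minor groove of DNA and bends it with little sequence preference. Such proteins are abundant in early embryonic chromatin, bind linker DNA and loosen nucleosomes. The first introns of Drosophila genes are often long and commonly hold enhancers, alternative promoters and binding sites for architectural proteins.

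The summit and 100 bp to each side of it are shown first for 7 members, as examples of the windows used in the sequence results below. All are on dm6, plus strand, 5′ to 3′. Lk6 (chr3R:11760957-11761157) and larp (chr3R:28326499-28326699) are among the 8 highest members and hold the 7-base element ACAGTGG, written CCACTGT where it is read on the other strand. The windows of ph-p (chrX:2137232-2137432) and CG9663 (chr2L:3302081-3302281) are also among the 8 highest and hold none of the marked elements. The window in an intron of CG1677 and Dok (chrX:7324965-7325165) and that of yps (chr3L:12124220-12124420) hold a CA repeat, and CG43693 (chr3L:11047988-11048188) holds a match to the Su(Hw) consensus. Capitals mark these matches and nothing else. These last 3 windows were chosen after values had been seen.
Lk6: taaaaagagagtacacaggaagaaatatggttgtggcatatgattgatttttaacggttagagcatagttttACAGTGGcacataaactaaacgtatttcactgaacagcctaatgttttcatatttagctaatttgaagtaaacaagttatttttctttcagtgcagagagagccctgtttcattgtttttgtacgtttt
larp: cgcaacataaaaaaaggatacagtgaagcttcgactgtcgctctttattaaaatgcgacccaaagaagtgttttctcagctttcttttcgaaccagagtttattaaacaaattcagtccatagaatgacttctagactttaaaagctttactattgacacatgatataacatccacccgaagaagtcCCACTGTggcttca
ph-p: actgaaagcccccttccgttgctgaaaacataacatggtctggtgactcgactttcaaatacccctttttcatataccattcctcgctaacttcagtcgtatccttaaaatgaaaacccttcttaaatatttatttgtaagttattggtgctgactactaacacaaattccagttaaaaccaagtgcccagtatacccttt
CG9663: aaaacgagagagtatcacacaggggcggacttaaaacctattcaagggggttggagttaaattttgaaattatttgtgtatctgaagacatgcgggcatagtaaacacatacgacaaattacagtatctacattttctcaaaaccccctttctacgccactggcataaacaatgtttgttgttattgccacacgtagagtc
Dok: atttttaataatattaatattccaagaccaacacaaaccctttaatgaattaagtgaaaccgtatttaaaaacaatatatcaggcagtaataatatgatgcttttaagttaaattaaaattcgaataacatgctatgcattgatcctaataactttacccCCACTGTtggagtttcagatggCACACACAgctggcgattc
yps: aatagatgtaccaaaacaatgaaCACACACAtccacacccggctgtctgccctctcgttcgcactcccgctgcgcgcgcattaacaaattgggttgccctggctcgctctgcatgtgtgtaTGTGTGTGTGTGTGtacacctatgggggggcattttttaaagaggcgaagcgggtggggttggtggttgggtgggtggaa
CG43693: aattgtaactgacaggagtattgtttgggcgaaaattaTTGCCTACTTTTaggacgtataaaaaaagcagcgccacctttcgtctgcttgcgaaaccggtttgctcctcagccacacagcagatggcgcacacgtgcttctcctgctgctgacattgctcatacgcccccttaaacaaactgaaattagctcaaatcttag

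Peaks were dense in this zone of introns. All bases that met the positional rule, called eligible sequence here, amounted to 6.66 Mb, or 4.98% of the arms analysed, and carried 92.4 members per Mb. Introns over 1 kb from a TSS carried 25.7 peaks per Mb (1245 peaks), and intergenic sequence at the same distances carried 69.2 per Mb (312 peaks). Promoters, within 250 bp of a TSS, carried 404 per Mb. Members were also frequent at the top of the list. They made up 14.0% of the strongest 500 peaks by pooled signal (70 peaks, 95% Wilson interval 11.2 to 17.3), against 8.99% of all 6844. No test was run on such shares, because peaks of 1 sample are not replicates, and Wilson intervals cover counting error only. The same count made on the 6844 strongest regions of each replicate alone gave 634 members in replicate 1 and 665 in replicate 3, so the density did not rest on 1 replicate.

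A region of both replicates had its summit within 100 bp of 589 of the 615 members (95.8%, interval 93.9 to 97.1), beside a background of 94.1% over all thresholded peaks. The share was close to the background. Signal is the authors' own value for each peak, and is given below as a multiple of the median of that replicate's list of 30000 regions. Over members, the median was 3.03 in replicate 1 (601 matched, quartiles 2.30 and 4.52) and 3.41 in replicate 3 (602 matched, quartiles 2.55 and 5.50), with a mean of 3.22 ± 0.263 (SD, n = 2). All thresholded peaks had medians of 2.96 and 3.48, with the same mean of 3.22, so members were not higher than peaks in general. Introns over 1 kb away had medians of 2.81 and 3.08, lower than members in both replicates. Intergenic peaks at the members' distances had 2.95 and 3.67, and promoter peaks had 3.05 and 3.65. Replicate 3 was the higher in 65.7% of the members found in both, by a median ratio of 1.16, so each SD between replicates includes this offset. Across those 589 members the replicates had a Spearman rho of 0.631 and a Pearson r of 0.736 on a log2 scale. This is a description over peaks called against 1 shared control alignment.

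**Figure D1:**
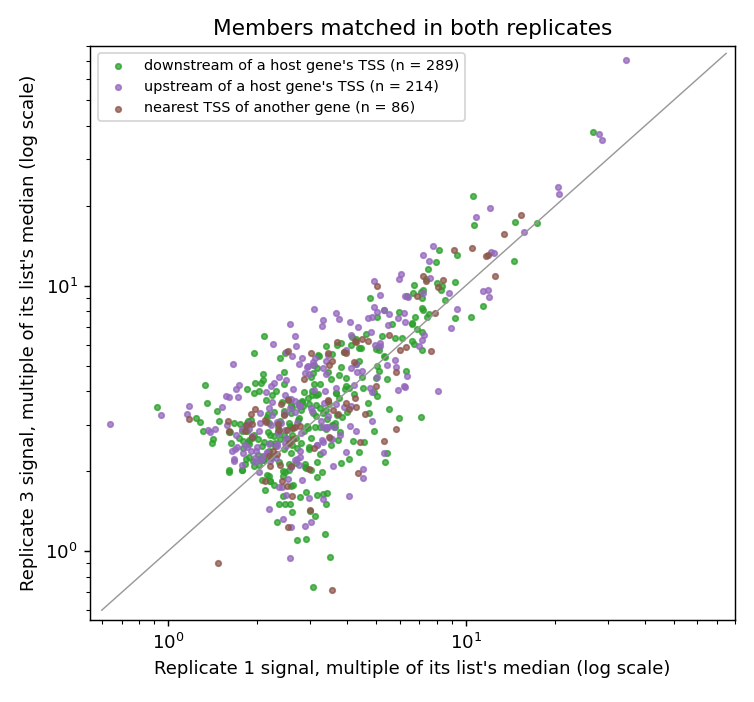
Signal of the 589 members found in both replicates, replicate 1 on the x axis and replicate 3 on the y axis, each as a multiple of the median of that replicate's list on log scales, coloured by which TSS is nearest; the line marks equal values. The 3 colours overlap over most of the range, and the isolated point at the upper right is the member shared by HmgD and HmgZ (34.6 and 70.6).

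The highest member lay in the genes of HmgZ itself and of its close relative HmgD, whose annotated bodies overlap. The 25 members named next were those of highest mean percentile in the replicates. The peak at chr2R:21702660-21703695 is in introns of both genes, 564 bp upstream of an HmgZ TSS. Its signal was 34.6 times the list median in replicate 1 and 70.6 times in replicate 3, a mean of 52.6 ± 25.5 (SD, n = 2). Both values were the highest of any member, and the SD was the largest of the 25. The part of the HmgZ insertion in this value was not tested. A second member in an HmgZ intron, 702 bp upstream of an HmgD TSS, reached 7.89 and 7.91, and a second HmgD member reached 7.12 and 6.71. Dsp1, another HMGB-type gene and a known corepressor, had 1 member at 3.03 and 3.45, near the medians of all members.

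The next members lay in genes of varied roles. Lk6, the fly relative of the kinases that phosphorylate eIF4E, had 28.1 in replicate 1 and 37.4 in replicate 3, 978 bp upstream of its own internal TSS. The peak of ph-p, which encodes the Polyhomeotic subunit of Polycomb repressive complex PRC1, had 28.8 and 35.5, 477 bp upstream of a ph-p TSS. Both were far above the upper quartiles of 4.52 and 5.50. CG9663, an ABC transporter gene, had 26.7 and 37.9, 949 bp downstream of its TSS, and a promoter peak stood at that TSS as well. The peak in larp, a La-related RNA-binding protein, had 20.4 and 23.5. The peak in overlapping introns of chif, a Dbf4-type activator of the Cdc7 replication kinase, and Hyls1, a centriole protein gene, had 20.6 and 22.1. These 2 were separated by less than their replicates differed.

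Those that followed were lower and closer to each other. An intron of arg, the arginase gene, held a peak of 15.4 and 18.4 whose nearest TSS, 264 bp away, is that of the neuronal RNA-binding gene elav. Another member, at 6.62 and 7.26, lay in elav, inside the annotated body of arg. CG31635 had 17.4 and 17.2, wde, a cofactor of the H3K9 methyltransferase Eggless, 14.7 and 17.4, and Reph a mean of 15.9 ± 0.186 (SD, n = 2). The remaining 15 of the 25 ranged from 8.12 to 14.5 in replicate 1 and from 10.9 to 21.7 in replicate 3. They lay in Fhos (a formin), CHES-1-like (a forkhead factor), Adf1 (a MADF-domain factor), CG4496, CG31612, CG9135, mrj (a DnaJ-type chaperone), papi (a Tudor protein of the piRNA pathway), Zw (glucose-6-phosphate dehydrogenase), ush (a cofactor of GATA factors), KCNQ (a potassium channel), CG1677, gce (a juvenile hormone receptor), LPCAT and CG9921. Among the 25, 22 were in a first intron and 17 lay upstream of the nearest TSS, against 501 and 299 of all 615.

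**Figure D2:**
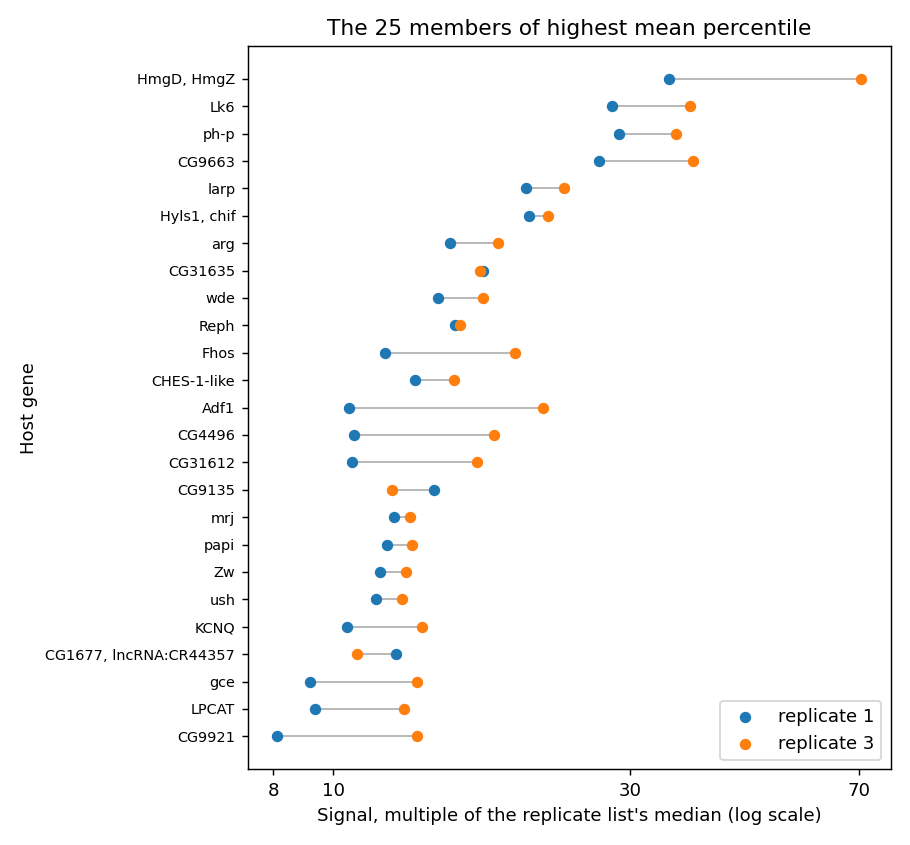
Signal of the 25 members of highest mean percentile in replicate 1 (blue) and replicate 3 (orange), as a multiple of the replicate list's median on a log scale, with the host gene on the y axis. Values run from 8.12 to 70.6, and 22 of the 25 are higher in replicate 3.

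Most members lay in first introns of protein-coding genes. A first intron of some transcript held 501 members (81.5%, interval 78.2 to 84.3), against 71.6% of eligible sequence. An intron before the start codon held 371 (60.3%, interval 56.4 to 64.1), against 50.2%. A protein-coding gene was the host of 612. The host introns had a median length of 3539 bp (quartiles 1195 and 8242), and summits were a median of 509 bp from the nearer splice site. The distance to the TSS had a median of 594 bp, against 617 bp in eligible sequence, and density over 5 distance bins ran from 74.1 to 104 members per Mb. By arm the density was 103 members per Mb on X, 101 on 3L, 89.6 on 2L, 86.3 on 3R, 84.9 on 2R and 55.8 on the small chromosome 4, which held 4 members.

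The sides of the TSS differed. Downstream of the nearest TSS lay 316 members, 51.4% (interval 47.4 to 55.3) against 60.0% of eligible sequence, and 299 lay upstream. An intronic summit can lie upstream of a TSS where a gene has an internal TSS or holds another gene: 224 members preceded a TSS of their own host gene. Another 303 followed one, and 88, on either side, had the TSS of another gene as the nearest. From 250 to 400 bp, upstream sequence carried 171 members per Mb (109 members) and downstream sequence 44.5 (32 members). Upstream density then fell with distance to 74.1 per Mb from 850 to 1000 bp. Downstream density rose to 112 per Mb from 550 to 700 bp (94 members) and was 74.1 from 850 to 1000 bp. In the 6844 strongest regions of each replicate alone, upstream density from 250 to 400 bp was 177 per Mb in replicate 1 and 219 in replicate 3, against 48.6 and 44.5 downstream, so upstream was the higher in both. From 550 to 700 bp the order of the sides was not stable: downstream was higher in the thresholded peaks (112 against 89.6) and in replicate 1 (104 against 99.1), and upstream in replicate 3 (103 against 96.8). The split by side was chosen after values had been seen.

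**Figure D3:**
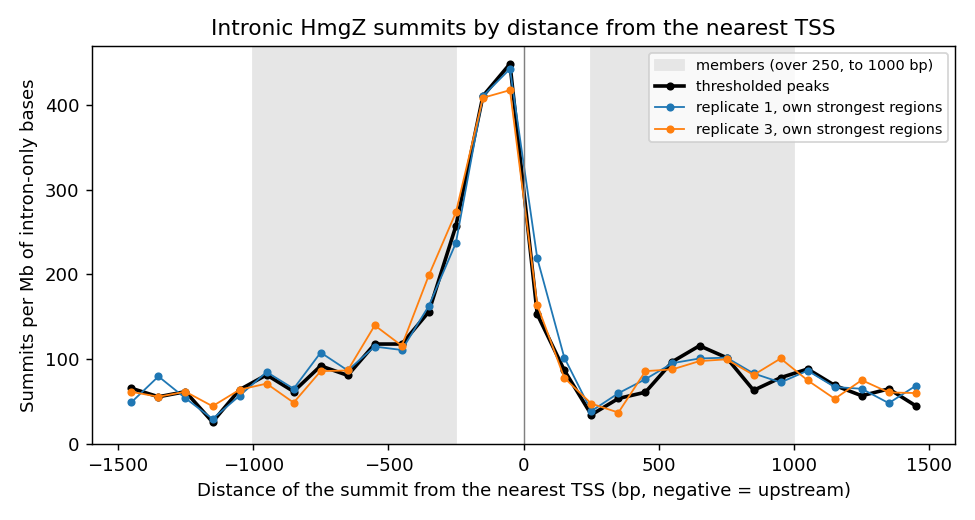
Density of intronic summits (per Mb of intron-only bases, y axis) by distance from the nearest TSS in bins of 100 bp (x axis, negative upstream), for the thresholded peaks and for the 6844 strongest regions of each replicate; grey marks the distances of the members. Upstream the curves fall away from the TSS, and downstream they are low between 200 and 400 bp and higher beyond. The thresholded peaks are at 34.7 per Mb from 200 to 300 bp and 116 from 600 to 700 bp, while replicate 3 has its downstream low from 300 to 400 bp (37.3) and runs from 81.6 to 101 per Mb between 400 and 1000 bp.

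A minority of members accompanied a peak at the TSS nearest to them. Another thresholded summit lay within 250 bp of that TSS for 144 members (23.4%, interval 20.2 to 26.9). It did so for 14.0% of all thresholded peaks. That value is held down by the promoter peaks (3.62%), since a peak was not counted as its own promoter peak. Outside promoters the share was 37.1% of intronic peaks over 1 kb from a TSS and 25.2% of exonic peaks. Intergenic peaks had 12.8% at the members' distances and 25.4% over 1 kb away. The share was 110 of 303 (36.3%, interval 31.1 to 41.9) where the member lay downstream of its host gene's TSS, 26 of 224 (11.6%, 8.05 to 16.5) where it lay upstream, and 8 of 88 (9.09%, 4.68 to 16.9) where the nearest TSS was another gene's. The share also moved with distance, from 4.96% within 400 bp to 37.7% from 700 to 850 bp, and upstream members lay closer. No member had another summit closer than 199 bp, and 67.3% of members were called 404 bp wide. How far this spacing limits the share at short distances was not tested. From 700 to 850 bp the share was 48.6% of 74 downstream members (interval 37.6 to 59.8) and 17.5% of 40 upstream members (8.75 to 31.9). From 850 to 1000 bp it was 33.3% and 27.3%, with overlapping intervals. Peaks at any TSS of a host gene were commoner, at 59.1%, 65.6% and 53.4% of the members of these groups. Counted by gene, 315 of 543 protein-coding hosts (58%) had one, beside 37.8% of all protein-coding genes with eligible sequence. Hosts also held more eligible sequence, a median of 1834 bp against 226 bp in the other genes. Where a member and a promoter peak shared a TSS, the member had the higher signal in 73 of 136 pairs in replicate 1 and 69 of 134 in replicate 3, and in 51 of 126 pairs in both. Neither of the pair was therefore regularly the higher. A second summit lay within 1 kb of 38.2% of members, against 20.0% of all peaks, and the called intervals of 46 members overlapped another peak.

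Host genes numbered 553, of which 543 were protein-coding, 5.51% of the 9862 protein-coding genes with eligible sequence. Of the hosts, 457 had 1 member, 81 had 2 and 15 had 3 or more. CG1677 and the long non-coding RNA gene lncRNA:CR44357 shared the same 6 members. They lay in long introns around smaller genes, and the nearest TSSs belonged to CBP, Dok, CG42780, brk and unc-119. Svil, the supervillin gene, had 5 members of 0.641 to 3.59 in replicate 1 and 1.41 to 3.41 in replicate 3. SNF4Agamma, the gamma subunit of the energy sensor AMPK, had 4, the highest at 6.29 and 5.87, and CG17230 had 4. Those with 3 were CG42258, CHES-1-like, Msp300 (a nesprin), Pgk (phosphoglycerate kinase), Tlk (Tousled-like kinase), Xrp1 (a bZIP stress factor), beat-Ib, bun (a TSC-22 relative), dlg1 (the Discs large scaffold) and larp. Hosts held a median of 1834 bp of eligible sequence, against 226 bp in other genes that had any, so list shares are given with densities per Mb.

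Signal transduction genes were frequent hosts. Of 28 listed genes that act inside the cell and had eligible sequence, 13 hosted a member (46.4%, interval 29.5 to 64.2), against the 5.51% of all protein-coding genes. Per Mb they carried 259 members, against 93.9 for all protein-coding genes, and 276 and 207 in the own sets of replicates 1 and 3. The 13 covered several pathways. The highest was sty, the receptor tyrosine kinase antagonist Sprouty, at 5.55 in replicate 1 and 7.80 in replicate 3, followed by the JAK/STAT factor Stat92E at 6.72 and 6.04 and the adaptor drk at 4.24 and 6.18. The others were Mad and shn of the Dpp pathway, pnt, stumps and kay, Socs36E, the Wnt pathway genes sgg, nkd and Apc, and the Hippo kinase wts. Secreted ligands and receptors had 5 hosts of 34 (14.7%) at 140 per Mb, led by InR, the insulin receptor, at 9.35 and 8.21.

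Several other lists were also denser than all genes. Actin and cell shape genes had 7 hosts of 26 (26.9%) at 181 per Mb, among them jar (myosin VI, 5.33 and 8.07), Moe (moesin, 3.40 and 5.20) and Tm1 (tropomyosin, 3.85 and 3.20). Growth and stress regulators had 5 of 22 (22.7%) at 202 per Mb, with Lk6, bun at 7.64 and 5.68, and cnc, the fly Nrf factor, at 4.29 and 5.06. Polycomb and Trithorax group genes had 5 of 29 (17.2%) at 144 per Mb. Apart from ph-p these were moderate, as in fs(1)h (2.09 and 4.40) and Trl, which encodes GAGA factor (1.84 and 4.10). HMGB-type and remodelling genes had 3 of 15 at 224 per Mb, all of them the HMGB-type genes named above. This density was 4 members in 17.9 kb, and HmgZ is the gene that the insertion targets. RNA-binding regulators had 8 of 31 (25.8%), while their density of 79.6 per Mb stood beside 93.9 for all genes. In the own sets it was below that of all genes in replicate 1 (69.7 against 96.7) and above it in replicate 3 (109 against 102). They held a median of 2250 bp of eligible sequence each. The highest were brat (11.4 and 9.56), mub (7.36 and 10.6) and elav.

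The remaining lists were less dense than all protein-coding genes (93.9 per Mb), though not all had a lower share of hosts than their 5.51%. Ecdysone response genes had 3 hosts of 15 (20%) at 62.4 per Mb: br, in an intron shared with Mur2B, tai and EcR. Tissue and neural transcription factors had 4 of 30 (13.3%) at 64.1 per Mb, with ush at 11.7 and 12.9 the highest. Adhesion and axon guidance genes had 2 of 29 (6.9%) at 32.2 per Mb. The channel and synapse genes had dlg1 alone of 23 (4.35%) at 56.2 per Mb. Among 48 cuticle protein genes the single host was Cpr73D, whose peak lies closest to an Ogdh TSS. No host was found among 23 segmentation and patterning transcription factors or 69 ribosomal protein genes. The first set held 29.9 kb of eligible sequence and the second 11.4 kb. In the own set of replicate 3, 1 region lay in the segmentation set. No enrichment test was run on any list.

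**Figure D4:**
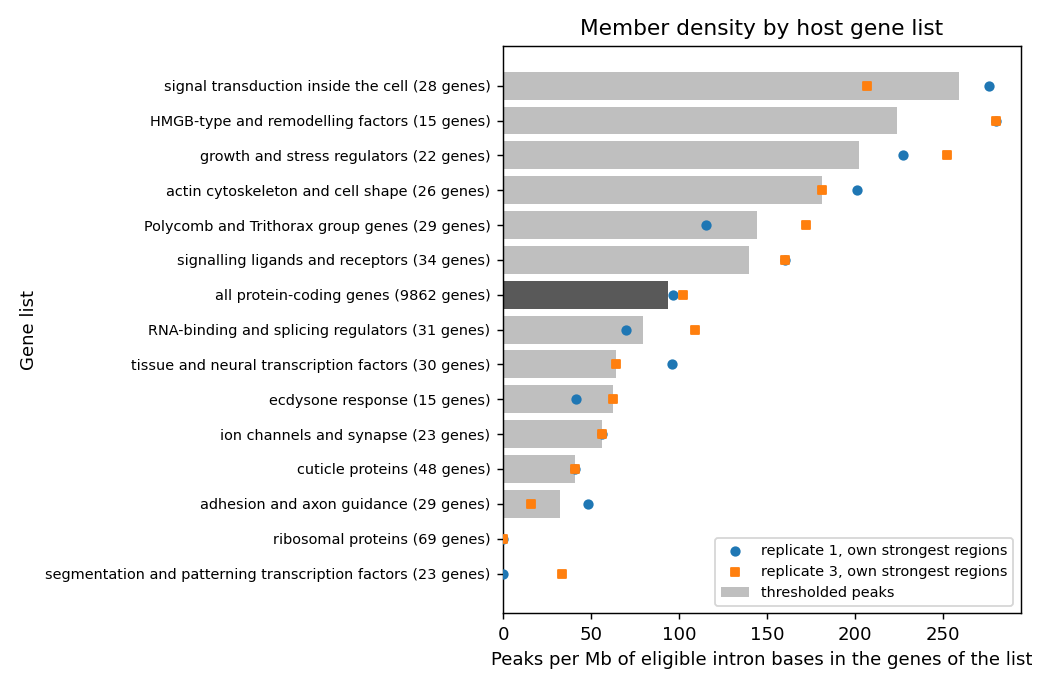
Members per Mb of eligible intron sequence (x axis, from 0) in the genes of each list, for the thresholded peaks (bars, all protein-coding genes in dark grey) and for the strongest 6844 regions of replicate 1 (circles) and replicate 3 (squares, drawn over the circles where equal). In the thresholded peaks, signal transduction genes stand highest at 259 per Mb against 93.9 for all protein-coding genes. HMGB-type and remodelling genes stand above them in both replicates' own sets (280 against 276 and 207), and growth and stress genes in replicate 3 (252). The 280 is 5 regions in 17.9 kb in each own set, in a list that includes HmgZ, the target of the insertion.

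A short element, marked in some of the windows printed above, was picked by ranking words over all members. ACAGTGG or its reverse complement CCACTGT occurred within 100 bp of the summit in 61 members (9.92%, interval 7.80 to 12.5). It occurred in 2.63% of 33118 windows of the same length tiled over all eligible sequence, and in 2.68% of 1230 windows centred 500 bp to either side of the members. The element was picked as the first of 720 words of 7 letters found in at least 30 members, ranked by the ratio to eligible windows. Words of other lengths had also been ranked before. Its excess over eligible sequence is therefore a selected value, and its excess over the flanks is no independent support. Its share was not higher than elsewhere in introns: it was 9.72% in peaks over 1 kb from a TSS, 6.73% in intergenic peaks at the members' distances and 4.35% in promoter peaks. Among members in the strongest 1711 of all peaks it was 15.1% (interval 10.6 to 21.1), against 7.80% (5.63 to 10.7) in the others. Members with the element had a median signal of 3.14 in replicate 1 and 4.50 in replicate 3, and members without it 3.03 and 3.33, so these medians differed more in replicate 3. The upper quartiles were 7.12 and 8.39 with it and 4.39 and 5.18 without. It was in 5 of the 25 highest members, Lk6, larp, CHES-1-like and Zw among them. The 73 matches were a median of 63 bp from the summit, and no factor is named for them here.

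CA repeats divided by side. A run of CACACACA, on either strand, lay within 100 bp of 63 summits (10.2%, interval 8.09 to 12.9), as in the Dok and yps windows, against 5.98% of eligible windows and 8.54% of flanks. Downstream members had it in 15.8% (50 of 316, interval 12.2 to 20.3) and upstream members in 4.35% (13 of 299, 2.56 to 7.30). Eligible windows had 6.56% downstream and 5.10% upstream. In the own sets of the replicates the shares were 18.7% and 5.52% in replicate 1, and 14.9% and 4.85% in replicate 3. The repeat was in 6.15% of members among the strongest 1711 peaks and in 11.9% of the others.

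Among the other consensus elements, GATA sites rose towards the summit. AGATAA or TGATAA occurred in 35.1% of members (interval 31.5 to 39.0), against 26.4% of eligible windows and 24.4% of flanks, with like shares on both sides of the TSS (34.8% downstream and 35.5% upstream). Shares were similar in peaks of introns over 1 kb from a TSS (37.8%) and of exons (33.7%). Intergenic peaks had lower shares, 28.2% at the members' distances and 28.5% over 1 kb away, and promoter peaks had 24.0%. GAGAG, the core of GAGA factor sites, occurred in 31.4% of members and 21.5% of eligible windows, and in 30.7% of flanks. In narrower windows the GAGA factor (Trl) element was in 7.64% of members at the summit itself, and in 14.5% to 16.4% at 100 and 150 bp to either side. The Su(Hw) consensus, of an insulator protein, was found in 11 members (1.79%, interval 1.00 to 3.17), against 0.465% of eligible windows and 0.0813% of flanks (1 window). It was in 1.04% of intronic peaks over 1 kb from a TSS, 2.33% of exonic peaks and 0.475% of promoter peaks. Intergenic peaks had it in 1.92% at the members' distances and 4.15% over 1 kb away. The CTCF core (AGAGGGC or the form AGATGGC or the form AGGGGGC or the form AGGTGGC) was in 9.43% of members, against 6.33% of eligible windows. It was in 14.4% and 12.9% of intergenic peaks at these distances and over 1 kb away, and in 12.8% of exonic peaks. Intronic peaks over 1 kb from a TSS had 8.92% and promoter peaks 8.29%. The promoter elements were rarer here than in promoter peaks, but not than in eligible windows. The DNA replication-related element (TATCGATA or the form AATCGATA or the form TATCGATT or the form AATCGATT) was in 2.93% of members, 2.39% of eligible windows and 19.5% of promoter peaks. The M1BP element was in 2 members (0.325%), 0.0362% of eligible windows and 6.19% of promoter peaks. TAATTA, a homeodomain site, was less frequent than in eligible sequence, at 11.2% against 15.2%, but not than in flanks (10.2%). G+C content averaged 38.9% at members, 39.5% in eligible windows and 42.2% in flanks. A match describes letters in a window and does not show that a factor was bound.

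**Figure D5:**
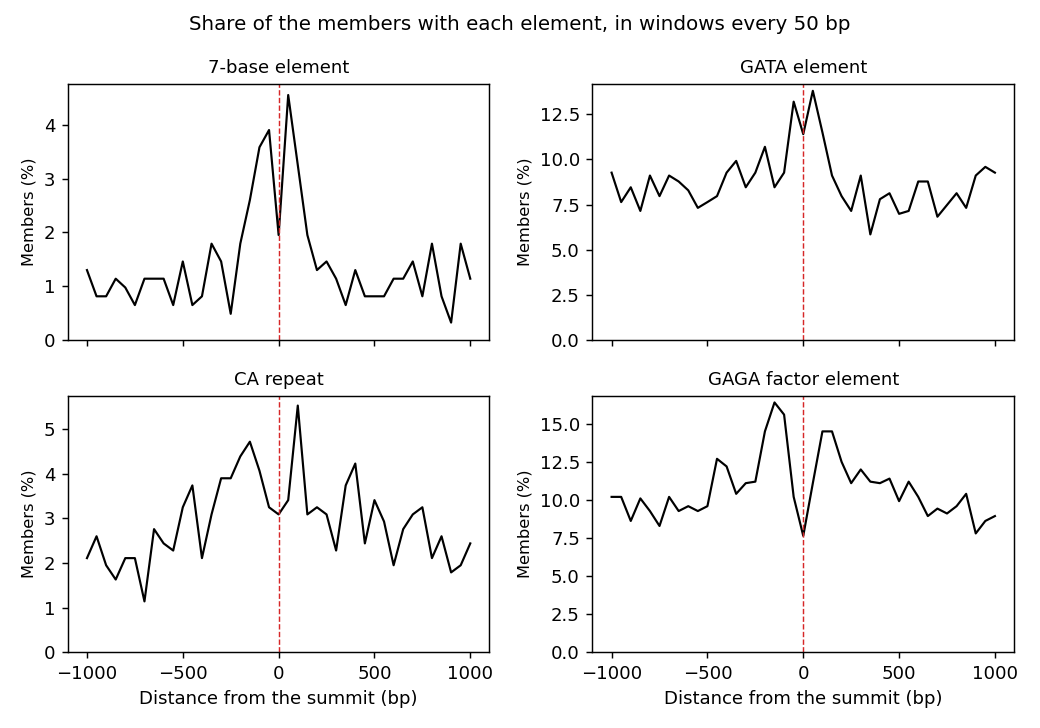
Share of the 615 members (y axis) with the 7-base element, a GATA element, a CA repeat or a GAGA factor element in windows placed every 50 bp from 1000 bp before to 1000 bp after the summit (x axis). The 7-base element and GATA rise within about 100 bp of the summit, and both are highest 50 bp to either side of it. The 7-base element was picked by its share within 100 bp of these summits, so its rise there is selected. There the 7-base element is in 3.9% and 4.55% and GATA in 13.2% and 13.8%, against 1.95% and 11.4% at the summit itself. The GAGA factor element is highest beside the summit and falls to 7.64% at it.

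Members near the limits of the rule had ordinary values. Just inside the lower limit, CG4622/ITP, at the limit itself, had 4.11 and 3.52 and SNF4Agamma at 252 bp had 2.33 and 2.54, while Cdk12 and Exn at 249 bp, just outside, were each matched in 1 replicate (3.03 in replicate 1 and 2.46 in replicate 3). At the upper limit, mod(mdg4) at 998 bp had 5.06 and 3.85 and tai at 1000 bp had 2.34 and 2.78, and outside it crb at 1004 bp had 2.87 and 4.56 and Tob at 1005 bp had 5.82 and 9.10. The member in mwh was matched in neither replicate. The lowest of those matched in both were Svil (0.641 and 3.01) and Mcr (1.48 and 0.902).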

How the data were processed

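ChIP-seq peak lists of HmgZ-eGFP embryos were used. Per the descriptions deposited with them, each replicate and the pooled reads were called on dm6 against a shared control, and the thresholded peaks derive from those lists. Chromatin was sonicated to 200 to 800 bp per the labels. Aligner and peak caller: not given in the sources used here. The authors' signal per region has no stated scale, and its scale differs between lists. The deposited −log10 q-value is equal for all thresholded peaks and was not used. Read depth is unknown.

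Summits were placed on RefSeq Release 6 (the dm6 assembly) with Ensembl 115 genes, without transposable elements and pseudogenes, on 6 arms. Every eligible base was counted, and 24 consensus motifs were matched on both strands within 100 bp of summits. Position calls were run on simulated data (720 of 720 recovered). The simulated positions were drawn with the same calls, so this outcome was fixed in advance and does not test them. Members, the 14 gene lists and motifs were chosen with earlier results of these data known, and 1 motif (Ohler motif 6) was corrected after its result was seen. Named were the 25 members of highest mean percentile, hosts of 3 or more members, HmgZ, HmgD and Dsp1, members at each limit, up to 3 hosts per list and the lowest members. Of the 25, up to 8 could have a sequence printed, and 4 are shown. A further sequence is not reported here. Alternatives were stronger peaks, single replicates, interval middles, protein-coding TSSs and other windows and distances. Software was Python 3.11.15, numpy 2.4.6, pandas 2.3.3, scipy 1.17.1 and matplotlib 3.10.9.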

Additional observations from a re-analysis of the deposited data

How the results depend on the processing

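Of the recomputed summary values, 74 stayed within the error or 1.5 times and 16 moved, and no summary value reversed. Of the values for single motifs and gene lists, 264 stayed and 50 moved. In the strongest 3422 peaks, hosts fell from 46.4% to 25% of signal transduction genes and from 26.9% to 11.5% of actin genes. They fell from 14.7% to 2.94% of ligand and receptor genes and from 17.2% to 3.45% of Polycomb and Trithorax genes. All members fell from 615 to 315 there, and the share over all protein-coding genes in that set is not given. These falls therefore do not show a change against other genes. Growth and stress genes stayed (22.7% and 18.2%), while CA repeats moved from 10.2% to 7.3% of members. The order of the sides from 550 to 700 bp and the density of RNA-binding genes against all genes turned in replicate 3 (103 upstream against 96.8, and 109 against 102 per Mb). The strongest 3422 peaks gave more moves of summary values than any other alternative, and by construction fewer peaks enter there. They gave 315 members, 47.3 per Mb, a median signal of 4.88, a median width of 299 bp, a median distance of 570 bp, G+C of 38.1%, 99.0% matched in both replicates and 12.7% with a promoter peak at the nearest TSS. Counting promoter peaks to 500 bp gave 32.2%. Matching summits within 50 or 200 bp gave 78.2% and 98.5%. Windows of 50 and 200 bp to each side gave G+C of 37.7% and 40.6%. Leaving out 1 replicate, so that the other's own strongest 6844 regions stood in, gave a median width of 390 to 396 bp, a median distance of 575 to 598 bp, 634 to 665 members, 95.3 to 99.9 per Mb and a median signal of 3.13 to 3.14. The causes were not tested. A signal value counted as moved if it differed by more than the SD between the replicate medians (0.263), a choice made after seeing the data. With the SD first used, between the 2 replicates' own sets (0.00482), 23 values moved. Peaks matched in both replicates (589 members) and peaks that overlap no other (569 members) were added after seeing the data and moved none of the summary values. No paired analysis was possible because there is 1 group. Unknown depth and 2 replicates limit the precision, and the 2 replicates were called against 1 shared control.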

Other observations

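Below the authors' threshold, the pooled list held 2285 more regions that met the positional rule, and 959 of them (42.0%) were matched in both replicates. The threshold itself selects for agreement between replicates, so this share is not set against that of the members. Regions meeting the rule kept a near constant share along the pooled list, from 8.20% to 11.8% of each 3000 ranks, whereas intronic regions over 1 kb from a TSS went from 14.9% of ranks 1 to 3000 to 36.8% of ranks 27001 to 30000. The element ACAGTGG was in 105 of the 2285 regions below the threshold (4.60%, interval 3.81 to 5.53), between its 9.92% in members and its 2.63% in eligible windows. In the own sets of the replicates, the regions that were no members, and so were not used to pick the element, held it in 5 of 97 (5.15%, interval 2.22 to 11.5) in replicate 1 and 8 of 105 (7.62%, 3.91 to 14.3) in replicate 3. Members with a promoter peak at the nearest TSS held it in 13.9% (interval 9.17 to 20.5) and other members in 8.70% (6.48 to 11.6), and the intervals overlap.

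CTCGCTC or its reverse complement came after it in the ranking of words, in 53 members (8.62%) against 2.52% of eligible windows. It was in 5.59% of members among the strongest 1711 peaks and 9.86% of the others, and in 5.12% of flanks.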
